A study of Mus musculus with 8 samples.

Results

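The glucose uptake, glycolysis and lactate module comprised 35 genes of the 24930 in the deposited expression table, chosen by symbol from the textbook pathway: the transporters that bring glucose into the cell, the enzymes of each glycolytic step, the lactate dehydrogenases and lactate carriers, the carriers and kinases that decide whether pyruvate enters the mitochondrion, and the phosphoglucomutases that link glycolysis with glycogen. The choice was made with earlier results of these data known, so shares of members set beside those of all genes are descriptions only. All 35 were in the table, and all 35 passed the filter on low values (at least 1 FPKM in at least 2 libraries). Polyadenylated RNA had been sequenced from stromal cells of the mouse intestine with a low level of the receptor Pdgfra (Pdgfra-lo), kept in droplets of Matrigel. Mesenchyme only (3 libraries) means Pdgfra-lo cells seeded with no organoids, and in the cocultures 50000 Pdgfra-lo cells were grown for 7 days with duodenal enteroids that were either wild type (3 libraries) or β-cateninGOF (2 libraries), that is, carrying a gain-of-function form of β-catenin, the transcriptional effector of WNT signalling. No EGF, R-SPONDIN1 or NOGGIN was in the medium. At the end, cells positive for GFP were sorted and those stained by DAPI were discarded as dead. What carries GFP, the strain and age of the mice, the allele behind β-cateninGOF, and the culture time of the mesenchyme-only cells are not given in the sources used here. The series also describes a daily treatment with SB525334, which no sample label mentions, so no library was taken as treated.

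Glycolysis splits glucose into pyruvate in the cytosol, and pyruvate is then either reduced to lactate, which leaves the cell with a proton, or carried into mitochondria and oxidised. Hypoxia-inducible factors raise transcription of most of these genes when oxygen is low, and growth factor signalling, MYC and inflammatory activation also raise many of them in fibroblasts. In the gut wall, stromal cells lie beneath an epithelium whose proliferating crypt cells are themselves strongly glycolytic.

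Before the members' values, 3 facts of the libraries bear on how they are read. Depth is unknown because FPKM (fragments per length of transcript and per size of library) keeps no counts, and the columns summed to 438585 to 598384 FPKM. The stromal markers were present in all 8 libraries (10 of 10 in each, summed level 8935 to 18746 FPKM). BcatGOF library 2 was nonetheless the lowest library for Pdgfra (52.4 FPKM), Pdgfrb, Col1a1, Col1a2 (436 FPKM), Col3a1 (758 FPKM), Vim and Thy1 (30.0 FPKM). It was the highest for Dcn (5673 FPKM) and Cd81, and its Lum lay inside the range of the others. The 17 markers of intestinal epithelium summed to 5.91 to 8.15 FPKM in mesenchyme only. They summed to 18.1, 9.07 and 139.7 FPKM in the wild-type cocultures, and to 33.5 and 126.1 FPKM in the BcatGOF cocultures. Libraries numbered 2 stood apart in every group: they carried Xist at 27.2 to 34.9 FPKM against at most 0.174 FPKM elsewhere, and Saa3, an acute phase protein, at 19371 to 44637 FPKM against 6004 to 7156 FPKM. Because same-numbered libraries also deviated together, each coculture library is given below both in its group and against the mesenchyme-only library of its number.

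Most members were at higher levels in the stromal cells grown with enteroids, among them the hexokinases and the lactate exporter Slc16a3, but no single member passed the test over all genes. The summed level of the 35 members was 4747, 8464 and 5736 FPKM in mesenchyme only, 9678, 8816 and 10312 FPKM in the wild-type cocultures, and 7034 and 18746 FPKM in the BcatGOF cocultures. All 3 wild-type sums were above all 3 mesenchyme-only sums, but that of BcatGOF library 1 was below that of mesenchyme-only library 2. As a share of each library's FPKM the members held 1.08%, 1.47% and 1.25% in mesenchyme only, 1.97%, 1.47% and 2.10% in the wild-type cocultures, and 1.60% and 3.22% in the BcatGOF cocultures. Gapdh alone made up at least 31.0% of each sum. In a bulk library, fewer cells of a type and less RNA per cell cannot be told apart, and this holds for every value below.

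None of the 35 members passed an adjusted p of 0.05 over the 12927 genes tested (limma on log2 of FPKM plus 1, Benjamini-Hochberg adjustment), and the fit called few genes at all: 0.00774% of all genes with wild-type enteroids, 0.00774% with BcatGOF enteroids, and 0% between the enteroid genotypes. The labels do not say whether replicates came from separate cultures or animals, so p-values measure only the spread between these libraries. That spread may be technical in part. It was not technical alone, since Xist was at 27.2 to 34.9 FPKM in the libraries numbered 2 and at most 0.174 FPKM elsewhere. For the wild-type cocultures the log2 difference from mesenchyme only was positive for 25 members and negative for 10, with a median of 0.55 against 0.02 over all genes tested. At an unadjusted p under 0.05, 5 members were higher and 1 lower, where 2.29% of all genes were higher and 2.61% lower. For the BcatGOF cocultures 27 members were positive and 8 negative, with a median of 0.77 against 0.01 over all genes, and 13 were higher at an unadjusted p under 0.05 and 0 lower, where the shares over all genes were 2.88% and 2.62%. The lowest adjusted p of any member was 0.701 with wild-type enteroids (Hk2) and 0.894 with BcatGOF enteroids. Both comparisons use the same 3 mesenchyme-only libraries, so their values are not independent of each other.

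These counts depended on single libraries, and the share of all genes at an unadjusted p under 0.05 moved with them. For BcatGOF, 1 member was higher without BcatGOF library 2, with a median of 0.21, where 0.532% of all genes were. Without BcatGOF library 1, 20 members were higher, with a median of 1.03, where 8.98% of all genes were. Each of these fits has 1 BcatGOF library, which is assumed to vary like the other groups. The same count was 3 without mesenchyme-only library 1 (2.49% of all genes), 15 without mesenchyme-only library 2 (2.56%) and 5 without mesenchyme-only library 3 (1.38%). It was 7 without wild-type library 1 (2.31%), 9 without wild-type library 2 (2.45%) and 8 without wild-type library 3 (2.498%). The wild-type count of 5 was 2 without mesenchyme-only library 1 (1.56%), without wild-type library 1 (2.08%) or without wild-type library 3 (1.82%). It was 3 without mesenchyme-only library 3 (2.34%), 9 without mesenchyme-only library 2 (2.61%), and 12 without BcatGOF library 1 (3.47%) or 2 (3.40%). The sign of the median stayed positive in each of these fits. The 2 libraries with the most epithelial marker RNA were wild-type library 3 and BcatGOF library 2. With both of them left out (an alternative chosen after seeing the data), 34 members remained tested, and the medians were 0.49 and 0.21. At an unadjusted p under 0.05, 4 members were then higher with wild-type enteroids, where 2.91% of all genes were, and 0 with BcatGOF enteroids, where 0.593% were.

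Counting libraries rather than fitting them, 5 members lay above all 3 mesenchyme-only libraries in all 5 coculture libraries: Slc2a1, Hk1, Hk2, Pfkp and Slc16a3. Over all genes tested, 2.56% did so. A single member, Eno3, lay below in all 5, where 2.24% of all genes did. Leaving out wild-type library 3 and BcatGOF library 2 cannot remove a member from either count. It added none to those above, where 5.65% of all genes then lay, and Pdk4 to those below, where 4.51% lay. Against their same-numbered mesenchyme-only partner, 14 members were higher in all 5 pairs (Slc2a1, Hk1, Hk2, Gpi1, Pfkl, Pfkp, Pfkfb4, Aldoa, Aldoc, Gapdh, Pgam1, Pkm, Ldha and Slc16a3) where 11.4% of all genes were, and 2 (Eno3 and Ldhb) were lower in all 5, where 9.48% were. The median member's log2 difference in a pair was 0.67 for wild-type library 1, 0.04 for wild-type library 2, 0.54 for wild-type library 3, 0.54 for BcatGOF library 1 and 0.93 for BcatGOF library 2. Wild-type pair 2 thus stood lowest, and its mesenchyme-only partner was itself high in the module. The members there were at a median of 1.44 times the mean of mesenchyme-only libraries 1 and 3, against 0.992 times over all genes. Of the 3 mesenchyme-only libraries, library 2 was the highest for 24 of 35 members and for 4870 of the 12927 genes tested. It was also the partner of BcatGOF library 2, whose median of 0.93 was the highest of the 5 pairs. Why these pairs differed was not tested. The 5 pairs share 3 mesenchyme-only libraries, so they are not independent of each other.

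**Figure D1:**
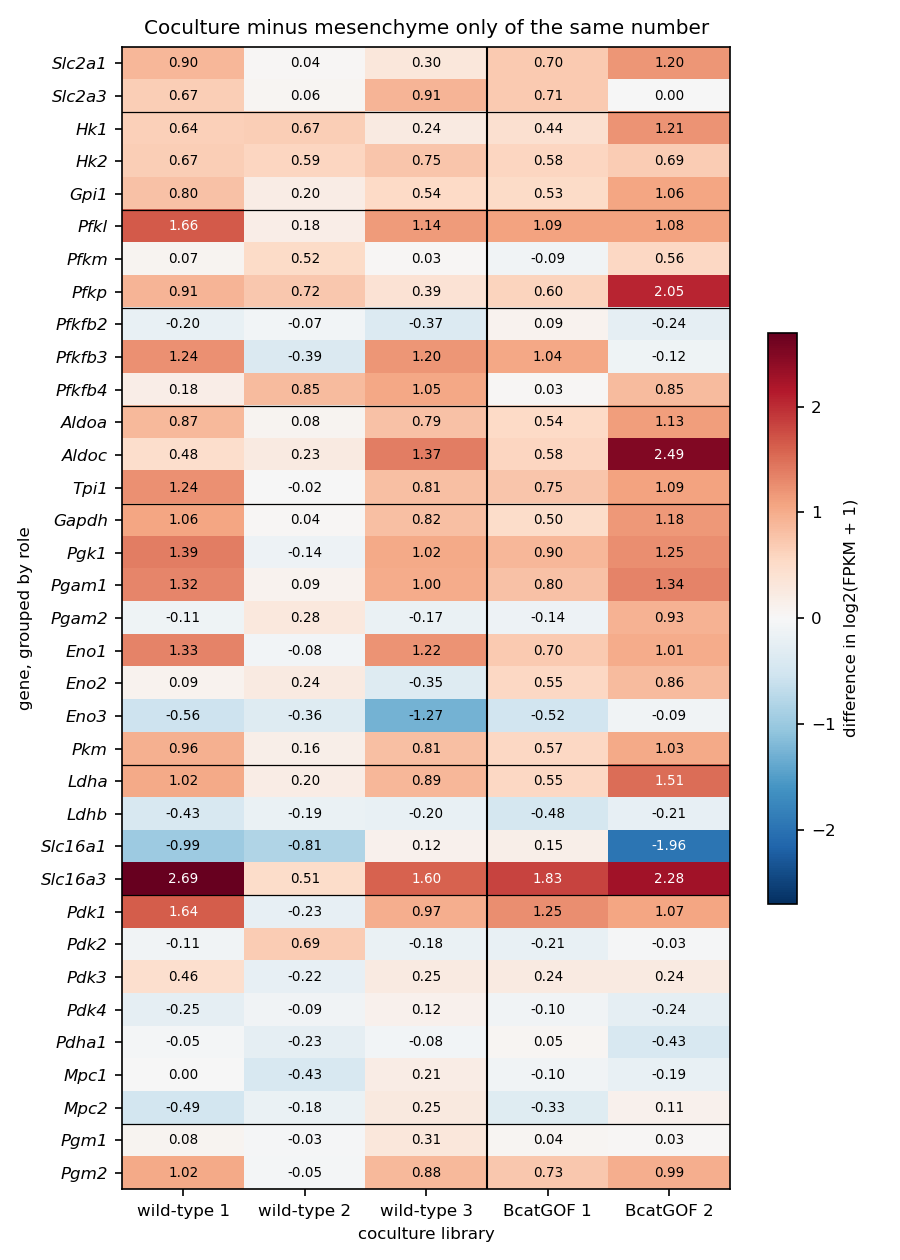
Log2(FPKM + 1) of each coculture library minus its same-numbered mesenchyme-only partner, for the 35 members (y axis, grouped by role) in 3 wild-type and 2 BcatGOF pairs (x axis), with red for higher and blue for lower in coculture. Hk2 is red in all 5 columns at 0.58 to 0.75, Slc16a3 is red at 0.51 to 2.69, and the column of wild-type pair 2 is the palest, with a median of 0.04.

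The promoters were read as a feature that the choice of members did not use. Hypoxia-inducible factors bind DNA at a short core, ACGTG or GCGTG, and the first of these also lies inside CACGTG, the E-box read by MYC and related factors, so a match does not tell these apart. The window from 250 bases before to 50 after each annotated start was read from the RefSeq promoter table (build GRCm38.p6), which held 51 windows for 34 of the members and none for Slc2a3. On either strand, ACGTG was in 23 of the 51 member windows (45.1%) and in 19.6% of the 32851 windows of all genes, and GCGTG was in 28 (54.9%) against 32.4%. One or the other was in 40 member windows (78.4%) against 43.8%, and in 30 of the 34 genes against 46.7% of 27025 genes. Member windows were also richer in G and C, at a median of 61.3% against 52.7%, and the cores are themselves made mostly of G and C, so the shares are a description only. A match is not a bound site, and a window without one says nothing of the factor. The 6 windows printed here are a selection that all hold a core. They are those of the lactate carriers, of which Slc16a3 was higher in 5 of 5 pairs and Slc16a1 in 2 of 5, and of Ldha, Hk2, Pfkp and Slc2a1. Another window of Ldha, not printed, holds 0 ACGTG and 2 GCGTG. The windows of Eno2, Gpi1, Pgam2 and Tpi1 hold neither core. Each is printed on its gene's strand from 5′ to 3′. Capitals mark a core on either strand (ACGTG and GCGTG, or CACGT and CACGC where the core is on the other strand).
Slc16a3, chr11:120948817-120949116 (plus strand): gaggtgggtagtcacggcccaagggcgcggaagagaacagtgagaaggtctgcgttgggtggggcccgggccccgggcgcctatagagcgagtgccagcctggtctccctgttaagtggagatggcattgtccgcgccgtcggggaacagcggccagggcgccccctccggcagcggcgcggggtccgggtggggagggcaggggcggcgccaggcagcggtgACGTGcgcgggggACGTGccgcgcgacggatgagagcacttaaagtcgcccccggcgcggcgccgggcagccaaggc
Slc16a1, chr3:104638414-104638713 (plus strand): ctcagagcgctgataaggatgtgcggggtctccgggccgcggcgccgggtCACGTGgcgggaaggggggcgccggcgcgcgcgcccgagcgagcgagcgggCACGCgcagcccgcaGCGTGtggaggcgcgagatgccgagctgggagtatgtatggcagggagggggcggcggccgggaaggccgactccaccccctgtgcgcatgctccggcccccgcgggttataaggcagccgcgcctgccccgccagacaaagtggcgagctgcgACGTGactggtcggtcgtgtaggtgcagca
Ldha, chr7:46845554-46845853 (plus strand): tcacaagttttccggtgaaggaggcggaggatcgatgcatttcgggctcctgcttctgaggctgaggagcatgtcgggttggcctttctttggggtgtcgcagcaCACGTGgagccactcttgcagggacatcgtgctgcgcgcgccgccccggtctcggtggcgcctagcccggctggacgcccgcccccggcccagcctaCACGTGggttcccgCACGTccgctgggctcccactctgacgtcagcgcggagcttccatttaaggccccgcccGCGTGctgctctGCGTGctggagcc
Hk2, chr6:82774405-82774704 (minus strand): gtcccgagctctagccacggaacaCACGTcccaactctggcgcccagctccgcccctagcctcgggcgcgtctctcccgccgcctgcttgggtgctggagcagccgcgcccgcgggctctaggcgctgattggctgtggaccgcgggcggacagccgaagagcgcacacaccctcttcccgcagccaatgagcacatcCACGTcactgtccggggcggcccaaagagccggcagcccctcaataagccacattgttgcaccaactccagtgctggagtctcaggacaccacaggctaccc
Pfkp, chr13:6648722-6649021 (minus strand): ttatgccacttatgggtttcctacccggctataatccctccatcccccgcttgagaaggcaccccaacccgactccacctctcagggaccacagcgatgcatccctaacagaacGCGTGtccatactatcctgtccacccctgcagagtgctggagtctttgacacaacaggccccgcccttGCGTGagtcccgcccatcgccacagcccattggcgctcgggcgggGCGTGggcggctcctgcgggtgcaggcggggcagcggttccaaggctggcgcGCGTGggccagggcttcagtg
Slc2a1, chr4:119108495-119108794 (plus strand): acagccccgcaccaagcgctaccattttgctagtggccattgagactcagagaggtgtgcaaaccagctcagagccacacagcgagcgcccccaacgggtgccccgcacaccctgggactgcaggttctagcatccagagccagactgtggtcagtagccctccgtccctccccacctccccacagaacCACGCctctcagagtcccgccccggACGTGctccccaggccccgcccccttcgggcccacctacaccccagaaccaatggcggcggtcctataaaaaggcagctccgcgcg

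Glucose uptake was carried almost wholly by Slc2a1, the transporter GLUT1 that gives most cells their basal glucose supply. Slc2a1 was at 63.8, 87.1 and 88.0 FPKM in mesenchyme only, 119.8, 89.7 and 108 FPKM in the wild-type cocultures and 104 and 202 FPKM in the BcatGOF cocultures. Every coculture library lay above every mesenchyme-only library, narrowly in wild-type library 2. The group means were 79.6 ± 13.7, 106 ± 15.2 and 153 ± 68.8 FPKM (SD, n = 3, 3 and 2). On the log2 scale the difference from mesenchyme only was 0.41 (SE 0.28, unadjusted p = 0.174) with wild-type and 0.87 (SE 0.31, unadjusted p = 0.0229) with BcatGOF enteroids. Slc2a3, the high-affinity transporter GLUT3, was between 0.702 and 2.83 FPKM and never exceeded 2.54% of the summed level of the pair.

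Phosphorylation by hexokinase traps glucose in the cell, and both hexokinases of the module were higher in every coculture library than in any mesenchyme-only library. Hk1, the broadly expressed form, was at 24.2, 20.1 and 24.9 FPKM in mesenchyme only, 38.2, 32.7 and 29.7 FPKM with wild-type and 33.1 and 47.8 FPKM with BcatGOF enteroids. Its log2 difference was 0.52 (SE 0.18, unadjusted p = 0.0233) for wild type and 0.77 (SE 0.21, unadjusted p = 0.00611) for BcatGOF. Hk2, the inducible form, was at 11.4, 14.1 and 11.1 FPKM, then 18.7, 21.6 and 19.2 FPKM, then 17.6 and 23.4 FPKM. Hk2 was higher by a similar amount in each pair. Its group means were 12.2 ± 1.65, 19.9 ± 1.56 and 20.5 ± 4.13 FPKM (SD, n = 3, 3 and 2), and its differences in the 5 pairs ran only from 0.58 to 0.75. The fitted difference was 0.67 (SE 0.16, unadjusted p = 0.00343) for wild type and 0.70 (SE 0.18, unadjusted p = 0.00489) for BcatGOF. Hk1 kept 58.8% to 69.3% of the summed hexokinase level in the 8 libraries. Gpi1, the isomerase that turns glucose 6-phosphate into fructose 6-phosphate, was at 176, 260.2 and 212 FPKM, 307, 298 and 309 FPKM and 254 and 545 FPKM in the same order of groups. The wild-type libraries were close to one another and above mesenchyme only, but BcatGOF library 1 lay inside the mesenchyme-only range. The differences were 0.51 (SE 0.30) and 0.80 (SE 0.34, unadjusted p = 0.0455).

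Phosphofructokinase commits sugar to glycolysis, and its liver-type subunit Pfkl was the main form, at 57.2% to 79.4% of the summed subunits. Pfkl was at 31.6, 77.1 and 54.1 FPKM in mesenchyme only, 102, 87.7 and 121 FPKM with wild-type and 68.4 and 164 FPKM with BcatGOF enteroids. All 3 wild-type libraries lay above mesenchyme only, whereas BcatGOF library 1 did not clear mesenchyme-only library 2. The differences were 0.99 (SE 0.40, unadjusted p = 0.0392) and 1.04 (SE 0.45, unadjusted p = 0.0497). Pfkp, the platelet-type subunit that many tumours carry, was at 4.88, 4.59 and 7.33 FPKM, 10.0, 8.22 and 9.88 FPKM and 7.94 and 22.2 FPKM, above mesenchyme only in all 5 cocultures. Its differences were 0.67 (SE 0.34, unadjusted p = 0.0835) and 1.15 (SE 0.38, unadjusted p = 0.0166). Without BcatGOF library 1, which leaves 1 BcatGOF library and takes the spread from the other groups, Pfkp had a log2 difference of 1.84 and an adjusted p of 0.035 (limma), so that value rests on BcatGOF library 2 alone. The muscle-type subunit Pfkm overlapped between the groups at 17.6 to 28.7 FPKM.

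The bifunctional Pfkfb enzymes make and break down fructose 2,6-bisphosphate, the strongest activator of phosphofructokinase. Pfkfb3, the form with high kinase activity, led the family at 24.7, 35.9 and 21.8 FPKM in mesenchyme only, 59.5, 27.1 and 51.3 FPKM with wild-type and 51.7 and 33.1 FPKM with BcatGOF enteroids. Library 2 of both coculture groups lay below mesenchyme-only library 2, so both pairs numbered 2 went the other way from the other 3. The differences were 0.68 (SE 0.33) and 0.60 (SE 0.37). Pfkfb4 was lower in level, at 2.90, 3.09 and 2.39 FPKM, 3.42, 6.36 and 6.01 FPKM and 2.98 and 6.35 FPKM, and was higher in all 5 pairs, with a wild-type difference of 0.69 (SE 0.29, unadjusted p = 0.0419). Pfkfb2, the form known from heart, overlapped between groups at 2.61 to 4.90 FPKM.

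Aldolase splits fructose 1,6-bisphosphate into a pair of trioses, and the isomerase Tpi1 turns one into the other. Aldoa made up at least 99.5% of the summed aldolase level in every library. It was at 559.9, 873 and 642 FPKM in mesenchyme only, 1022, 926 and 1108 FPKM with wild-type and 816 and 1911 FPKM with BcatGOF enteroids. All wild-type libraries were above all mesenchyme-only libraries, while BcatGOF library 1 was below mesenchyme-only library 2. The differences were 0.58 (SE 0.35) and 0.88 (SE 0.39). Aldoc, the aldolase known from brain, was between 0.105 and 8.76 FPKM, highest in BcatGOF library 2 and next in wild-type library 3, which were also the libraries highest in summed epithelial markers (126.1 and 139.7 FPKM). The part of epithelial RNA in the Aldoc values was not tested. Tpi1 ranged from 186 to 849.8 FPKM, with wild-type library 2 and BcatGOF library 1 inside the mesenchyme-only range.

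**Figure D2:**
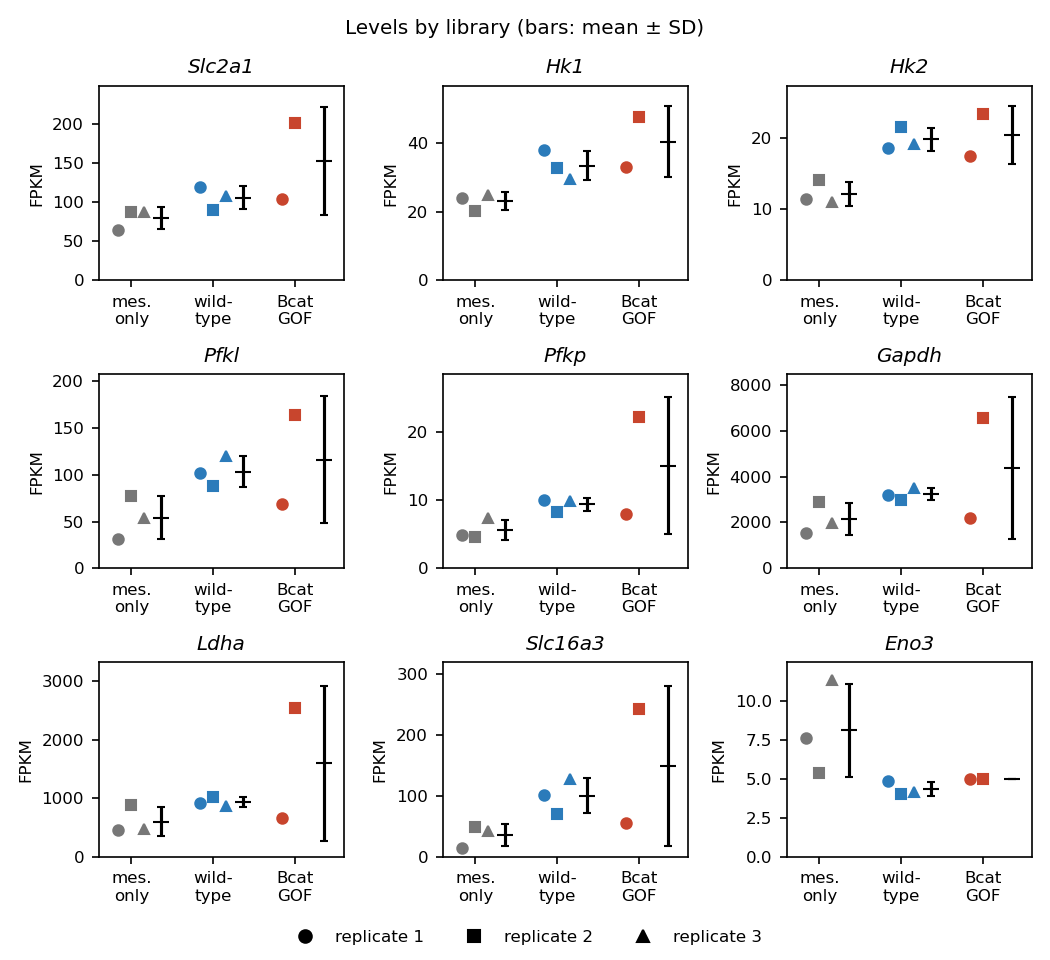
FPKM in each of the 8 libraries (y axis, from 0) for 9 members, by group on the x axis (mesenchyme only, wild-type coculture, BcatGOF coculture). Point shapes give the replicate number, and the line and bar beside them the group mean and SD. For Hk1, Hk2 and Slc16a3 each coculture point lies above the mesenchyme-only points, Eno3 lies below, and BcatGOF library 2 lies far above BcatGOF library 1 for Ldha, at 2535 against 658 FPKM.

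The payoff steps, which earn ATP and NADH and end in pyruvate, held the most abundant transcripts. Gapdh, the dehydrogenase often taken as a constant reference, was at 1541, 2901 and 1995 FPKM in mesenchyme only, 3208, 2986 and 3518 FPKM with wild-type and 2183 and 6562 FPKM with BcatGOF enteroids. It ranked between place 3 and place 16 among all genes of a library, and it was higher in all 5 pairs, but by as little as 0.04 in wild-type pair 2 and as much as 1.18 in BcatGOF pair 2. Group means were 2146 ± 692, 3237 ± 267 and 4372 ± 3097 FPKM (SD, n = 3, 3 and 2), with fitted differences of 0.64 (SE 0.44) and 0.87 (SE 0.49). BcatGOF library 1 lay inside the mesenchyme-only range. Pgk1, the kinase that makes the first ATP of the pathway, was at 147, 308 and 187 FPKM, 388, 279 and 381 FPKM and 275 and 735 FPKM. Wild-type library 2 and BcatGOF library 1 lay inside the mesenchyme-only range, and the BcatGOF difference was 1.14 (SE 0.47, unadjusted p = 0.0416). Pgam1, the main phosphoglycerate mutase, was at 192, 338 and 243 FPKM, 482, 359 and 486 FPKM and 335 and 859 FPKM. All wild-type libraries lay above mesenchyme only, by a narrow margin in library 2, and BcatGOF library 1 did not, with a BcatGOF difference of 1.09 (SE 0.43, unadjusted p = 0.034). The muscle mutase Pgam2 stayed between 1.22 and 3.24 FPKM.

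The enolases, which make phosphoenolpyruvate, did not go one way. Eno1, at 91.5% to 98.4% of the summed enolase level, was between 420.5 and 851 FPKM in mesenchyme only, between 805 and 1372 FPKM with wild-type enteroids, and at 683 and 1715 FPKM with BcatGOF enteroids. Its groups overlap at the libraries numbered 2 and at BcatGOF library 1. Eno3, the muscle enolase, was at 7.60, 5.41 and 11.4 FPKM in mesenchyme only, 4.85, 4.00 and 4.13 FPKM with wild-type and 5.02 and 5.01 FPKM with BcatGOF enteroids. It was the one member below mesenchyme only in all 5 cocultures, with means of 8.12 ± 3.01, 4.33 ± 0.457 and 5.01 ± 0.00620 FPKM (SD, n = 3, 3 and 2). The differences were -0.73 (SE 0.24, unadjusted p = 0.0155) and -0.55 (SE 0.26, unadjusted p = 0.072). Eno2, the enolase of neurons and endocrine cells, was at 31.4, 35.6 and 22.7 FPKM, 33.5, 42.1 and 17.6 FPKM and 46.5 and 65.2 FPKM. Both BcatGOF libraries lay above the other 6, while wild type and mesenchyme only overlapped, and the BcatGOF difference was 0.88 (SE 0.37, unadjusted p = 0.0441). Pkm, the pyruvate kinase of most non-liver cells, was at 528, 852 and 532 FPKM, 1029, 954 and 932 FPKM and 783 and 1744 FPKM, and was higher in all 5 pairs. Its BcatGOF difference was 0.91 (SE 0.39, unadjusted p = 0.0468), and the gene-level values do not separate its splice forms. Eno1 has a near-identical copy, Eno1b, listed at 1.56 to 9.65 FPKM, and Gapdh, Pgk1, Ldha and Pkm have many pseudogene copies, so the authors' counting could have split some of their reads.

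The lactate dehydrogenase subunits went opposite ways within the pairs. Ldha, the subunit that favours making lactate, was at 449, 886 and 464 FPKM in mesenchyme only, 915, 1021 and 861 FPKM with wild-type and 658 and 2535 FPKM with BcatGOF enteroids. Wild-type library 3 lay just below mesenchyme-only library 2, BcatGOF library 1 lay inside the mesenchyme-only range, and BcatGOF library 2 was the highest of all. The differences were 0.71 (SE 0.50) and 1.18 (SE 0.56, unadjusted p = 0.0694). Ldhb, the subunit that favours using lactate, was between 24.5 and 56.6 FPKM and lower in all 5 pairs, with log2 differences of -0.19 to -0.48. Among the shares read for several families, without a test, the balance of these subunits separated the coculture libraries from mesenchyme only. Ldhb made up 7.16%, 6.00% and 7.06% of the summed level in mesenchyme only, 2.72%, 4.64% and 3.42% with wild-type and 3.59% and 1.89% with BcatGOF enteroids. No coculture library reached the lowest mesenchyme-only share of Ldhb. The Pdk4 share of the summed pyruvate dehydrogenase kinases also lay apart, narrowly and at a low level. It was 2.07% to 2.99% in mesenchyme only and 1.26% to 2.05% in the cocultures. The shares of all other forms read overlapped between cocultures and mesenchyme only.

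Lactate crosses the membrane through monocarboxylate transporters. Slc16a3 (MCT4), the form known for lactate export from glycolytic cells, was at 14.9, 49.1 and 41.3 FPKM in mesenchyme only, 102, 70.2 and 127 FPKM with wild-type and 55.4 and 242 FPKM with BcatGOF enteroids. Every coculture library was above every mesenchyme-only library, and mesenchyme-only library 1 was well below the other libraries of its group. Group means were 35.1 ± 17.9, 99.8 ± 28.6 and 149 ± 132 FPKM (SD, n = 3, 3 and 2). Its fitted differences were 1.60 (SE 0.61, unadjusted p = 0.0325) with wild-type and 1.86 (SE 0.69, unadjusted p = 0.0279) with BcatGOF enteroids. Within pairs it was higher by 2.69, 0.51 and 1.60 with wild-type and by 1.83 and 2.28 with BcatGOF enteroids. Slc16a1 (MCT1), which can carry lactate in or out, was between 22.5 and 63.2 FPKM in mesenchyme only and between 15.4 and 35.7 FPKM in the cocultures, higher in 2 pairs and lower in 3. Its share of the summed level of the carriers was 68.0%, 56.2% and 35.3% in mesenchyme only, 13.2%, 33.7% and 16.2% with wild-type and 38.9% and 6.01% with BcatGOF enteroids. The groups overlap, since BcatGOF library 1 lay above mesenchyme-only library 3. Both carriers had cores in the promoter windows printed above, so these letters do not separate the carrier that was higher in each pair from the one that was not.

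**Figure D3:**
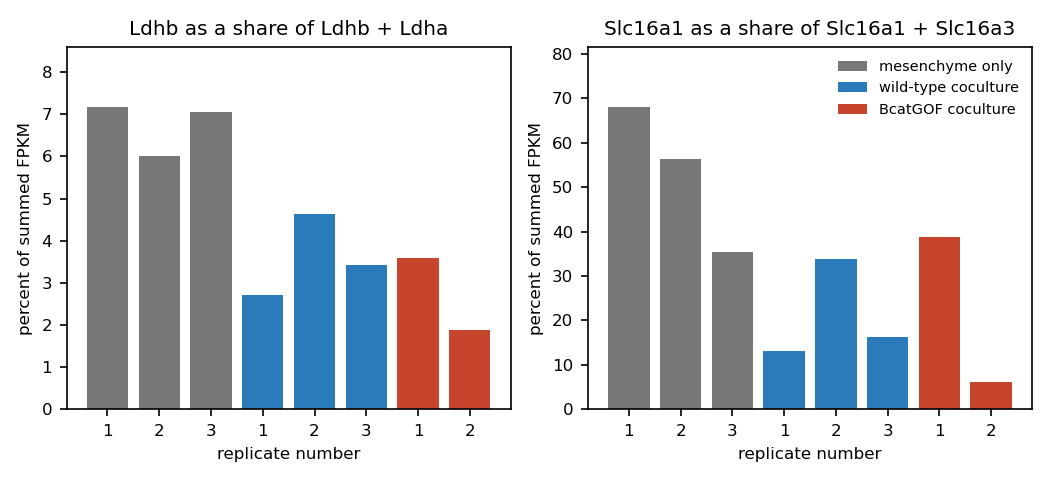
Share of the summed FPKM of each family held by the named form (y axis, percent, from 0) in each of the 8 libraries (bars, by replicate number, coloured by group). The Ldhb share is 6.00% to 7.16% in mesenchyme only and 1.89% to 4.64% in the cocultures, without overlap, while the Slc16a1 share of BcatGOF library 1 lies above that of mesenchyme-only library 3.

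At the branch where pyruvate enters the mitochondrion the module was mixed. The carrier subunits Mpc1 and Mpc2, which bring pyruvate in, overlapped between groups at 40.2 to 66.3 FPKM and 36.7 to 93.2 FPKM. The catalytic subunit Pdha1 of pyruvate dehydrogenase was the most abundant of this role after Mpc2, at 58.9, 55.2 and 46.2 FPKM, 56.9, 46.8 and 43.7 FPKM and 61.1 and 40.6 FPKM, with no order between the groups. Mpc2 was at 51.9, 86.2 and 38.0 FPKM, 36.7, 76.2 and 45.5 FPKM and 41.1 and 93.2 FPKM, highest in the libraries numbered 2 in every group, and its differences of -0.14 (SE 0.43) and 0.16 (SE 0.48) changed sign under other settings. Of the kinases that switch the dehydrogenase off, Pdk1, a classical target of hypoxia-inducible factor, was at 5.08, 11.4 and 9.88 FPKM, 18.0, 9.54 and 20.4 FPKM and 13.4 and 24.9 FPKM. It was higher in 4 of 5 pairs and lower in wild-type pair 2, and its BcatGOF difference was 1.05 (SE 0.43, unadjusted p = 0.0404). Pdk1 made up 14.6%, 24.6% and 18.3% of the summed kinases in mesenchyme only, 34.4%, 19.2% and 31.3% with wild-type and 30.5% and 39.5% with BcatGOF enteroids, with wild-type library 2 again inside the mesenchyme-only range. Pdk3 was between 14.9 and 24.8 FPKM, Pdk2 between 11.7 and 25.7 FPKM, and Pdk4, known from fasting, between 0.714 and 1.31 FPKM.

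The phosphoglucomutases move glucose between glycolysis and glycogen. The gene listed as Pgm2 was at 29.7, 48.7 and 38.2 FPKM in mesenchyme only, 61.4, 47.1 and 71.2 FPKM with wild-type and 49.8 and 97.7 FPKM with BcatGOF enteroids, with a BcatGOF difference of 0.86 (SE 0.33, unadjusted p = 0.0345). It was higher in 4 of 5 pairs, and wild-type library 2 lay inside the mesenchyme-only range. The gene listed as Pgm1 stayed between 13.0 and 18.2 FPKM. These symbols were exchanged in mouse nomenclature over time, and each is an older name of the other, so which enzyme each row holds is uncertain.

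Between the enteroid genotypes, no direction of the module held across the libraries. With BcatGOF minus wild type the log2 difference was positive for 28 members and negative for 7, with a median of 0.23 against 0.01 over all genes. At an unadjusted p under 0.05, 1 member, Eno2, was higher (0.89, SE 0.37, unadjusted p = 0.0426, adjusted p = 1 in limma) and 0 were lower, where 1.11% of all genes were higher and 1.77% lower. Eno2 and Eno3 lay higher without overlap (6.36% of all genes) and Pdk2 lower (7.64%). For Eno3 the groups are nearly touching, at 4.85 FPKM in wild-type library 1 against 5.01 FPKM in BcatGOF library 2. BcatGOF library 2 exceeded BcatGOF library 1 for 28 of 35 members, at a median ratio of 1.93 where all genes gave 1.00. Without BcatGOF library 2 the median difference between genotypes was -0.24, with 8 members positive and 27 negative. The sign of the genotype difference therefore rested on 1 library.

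The authors also compared the BcatGOF cocultures with the cells grown alone, and their deposited table holds only genes past a threshold. Of the members, 19 were listed in the authors' deposited table as higher with BcatGOF enteroids (6.07% of the genes tested here are listed higher) and 2, Pfkfb2 and Slc16a1, as lower (9.05% are listed lower). The authors' deposited table gives log2 fold changes of 4.79 for Aldoc, 3.13 for Slc16a3, 2.13 for Pfkp, 2.09 for Ldha and 2.01 for Gapdh. At the low end the authors' deposited table gives 0.93 for Hk2, -0.91 for Pfkfb2 and -1.70 for Slc16a1. For all 21 listed members the value in the authors' deposited table was nearer to the log2 ratio of BcatGOF library 2 over the mesenchyme-only mean than to that of the BcatGOF mean. The median gap was 0.157 to library 2, 0.679 to the mean and 1.45 to library 1. Over the 2100 listed genes that could be compared, 93.8% were nearer to library 2. The libraries that entered the authors' comparison are not named in the sources used here.

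**Figure D4:**
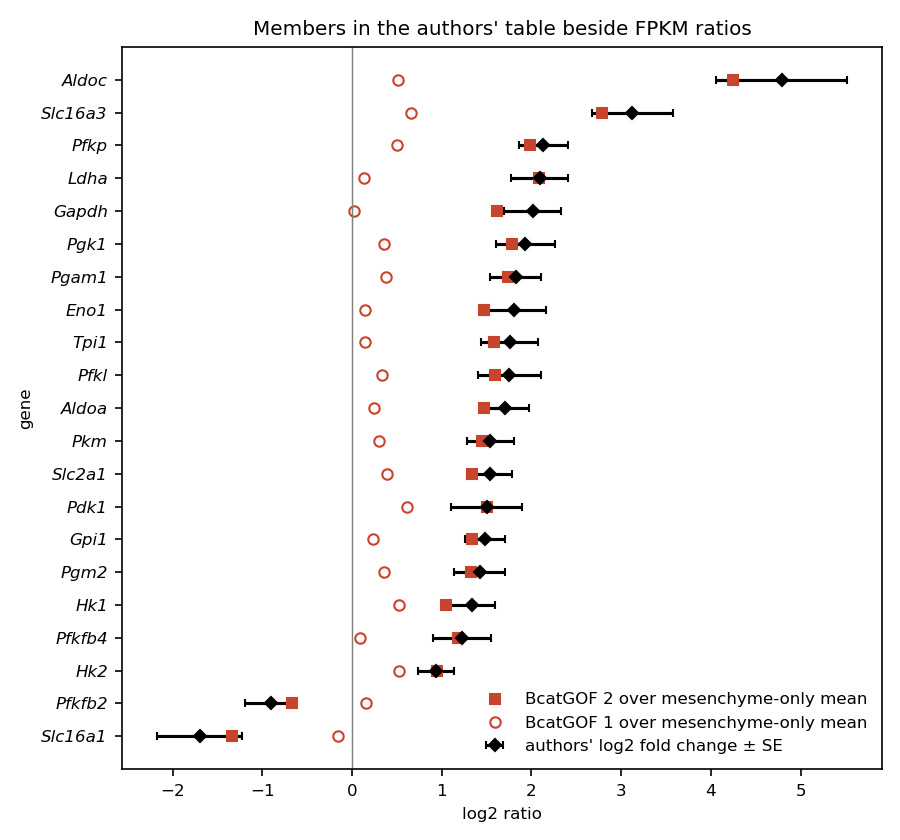
Log2 ratio (x axis) for the 21 members in the authors' deposited table (y axis), with diamonds and bars for the authors' log2 fold change and its SE, filled squares for the FPKM of BcatGOF library 2 over the mesenchyme-only mean and open circles for that of BcatGOF library 1. The squares lie beside the diamonds, with a median gap of 0.157, and the circles lie apart, with a median gap of 1.45.

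Genes around the module were taken from lists drawn up by role, and none passed over all genes. Of 12 tested genes of the tricarboxylic acid cycle, which burns the pyruvate that is not made into lactate, 10 were positive and 2 negative in each comparison with mesenchyme only, with medians of 0.03 and 0.08. Of the 7 tested genes of the pyruvate dehydrogenase complex and its phosphatases, all were negative with wild-type enteroids, with a median of -0.14, and 5 were negative and 2 positive with BcatGOF enteroids, with a median of -0.07. Pdp1, a phosphatase that switches the dehydrogenase on, had log2 differences of -0.70 (unadjusted p = 0.00709) and -0.47. The 7 tested genes of the pentose phosphate pathway, a side branch that yields NADPH and ribose, had medians of 0.06 and 0.13. Of 12 tested hypoxia targets outside glycolysis, 11 were positive with wild-type and 12 with BcatGOF enteroids, with medians of 0.65 and 0.89, and 3 and 5 were higher at an unadjusted p under 0.05, where 2.29% and 2.88% of all genes were. Vegfa, a growth factor of blood vessels, was higher in all 5 pairs, by 1.05 and 1.55 in the fit. Hif1a itself, which is regulated mainly as a protein, had log2 differences of -0.14 and -0.04. Among the regulators, Txnip, which holds glucose uptake down and is itself raised by glucose, was at 50.1, 43.5 and 106 FPKM in mesenchyme only, 33.8, 17.2 and 34.6 FPKM with wild-type and 39.1 and 19.7 FPKM with BcatGOF enteroids, with differences of -1.14 and -1.11 (unadjusted p = 0.0296 and 0.0498). Epas1, another hypoxia-inducible factor, was lower in all 5 pairs, with differences of -1.003 (unadjusted p = 0.0113) and -0.22 (unadjusted p = 0.533). Bpgm, which makes 2,3-bisphosphoglycerate, was higher by 0.97 (unadjusted p = 0.00781) with wild-type enteroids. Of the other lists, with wild-type enteroids 1 of 12 tested transporters and isoforms of other tissues, 1 of 7 glycogen genes, 1 of 3 gluconeogenesis genes and 1 of 9 regulators were higher at an unadjusted p under 0.05, where 2.29% of all genes were. In that comparison 2 regulators, Epas1 and Txnip, were lower and 0 of the other 3 lists, where 2.61% of all genes were. With BcatGOF enteroids the counts higher were 1, 2, 0 and 2, where 2.88% of all genes were, and 1 regulator, Txnip, was lower, where 2.62% were. Egln3 is on both the regulator list and the hypoxia target list, and it is counted as higher in each, in both comparisons. Among the forms known from other tissues, Slc2a2, Slc2a5, Pklr, Pgk2 and Ldhc did not pass the filter.

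Epithelial RNA moved with coculture as well, so its level stands beside these results. Of the 17 epithelial markers, 14 were above the mesenchyme-only mean in the wild-type group and 14 in the BcatGOF group, and Cldn4, Olfm4 and Tff3 were at 0 in all 3 mesenchyme-only libraries. The cocultures with epithelial sums of 18.1, 9.07, 139.7, 33.5 and 126.1 FPKM (wild-type libraries 1 to 3, then BcatGOF libraries 1 and 2) had median pair differences of the members of 0.67, 0.04, 0.54, 0.54 and 0.93. Leukocyte markers summed to 59.6 to 114.5 FPKM in mesenchyme only, 24.9 to 109.7 FPKM with wild-type and 51.6 to 133 FPKM with BcatGOF enteroids, with Cd3e at 0 in all libraries. Endothelial markers summed to at most 1.22 FPKM. Mesothelial markers summed to 2.40 to 18.4 FPKM in mesenchyme only, 7.05 to 50.4 FPKM with wild-type and 5.75 to 8.79 FPKM with BcatGOF enteroids, and glial markers to at most 9.14 FPKM. The part of epithelial RNA, of the replicate number and of BcatGOF library 2 in the members' values was not tested beyond the fits named.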

How the data were processed

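The authors deposited FPKM values of 24930 genes in 8 libraries, 3 of mesenchyme only, 3 of wild-type and 2 of BcatGOF coculture. In a second table the authors deposited, for genes past a threshold, log2 fold changes with standard errors, p-values and adjusted p-values. That table also holds, per the file headers, the authors' mean normalized count (a signal without replicates) and test statistic (a score). Named in the submitters' processing notes, without roles, are mm9, DESeq2 1.40.1 and kallisto 0.46.1. The making of the FPKM values was not given in the sources used here, and with no counts the depth is unknown and no count model was run.

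The 12927 genes that reached 1 FPKM in 2 or more libraries were fitted as log2 of FPKM plus 1 with 3 group means over all 8 libraries in limma 3.58.1 (R 4.3.3, trend and robust options, 5 residual degrees of freedom). The added 1 shrinks the differences of low genes. P-values are two-sided and adjusted over all genes tested after Benjamini and Hochberg, with 0.05 as the threshold. The fit was tested on simulated data. Shares and pair differences are values without a test. Deviations from the group means correlated at 0.301 to 0.554 between same-numbered libraries of different groups (7 pairs). Between other numbers (14 pairs) they correlated at -0.483 to 0.208. Deviations cancel within each group, so the values for other numbers follow in part from the same-numbered ones and are no separate evidence. The numbers were taken to pair the libraries, although the labels do not say what they mark. Alternatives were pseudocounts of 0.1 and 0.5, other filters, quantile and median ratio scaling, the replicate block, fits of 2 groups, variances without trend and robust options, and leaving out libraries.

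The members and lists were chosen with earlier results of these data known. Every library's value is given for the most abundant member of each role and for members with an unadjusted p under 0.05 or with coculture and mesenchyme-only libraries that do not overlap, and the rest by range. Values of Pdha1 and of genes outside the module were added to show their levels. Some marker and pathway genes of the lists are not reported here by name.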

Additional observations from a re-analysis of the deposited data

How the results depend on the processing

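No member passed over all genes under any alternative, except Pfkp without BcatGOF replicate 1 (log2 difference 1.84), where 1 BcatGOF library is left and is assumed to vary like the other groups, so that members called in BcatGOF against mesenchyme only ran from 0 to 1 as single libraries were left out. The number of genes called with wild-type enteroids (1) was 0 with a filter at a mean of 5 FPKM, 2 with the replicate block as a fixed effect, 5 as a random effect, 9 with only the 2 groups compared, 9 without wild-type library 3 and BcatGOF library 2 together, and 1 to 9 as single libraries were left out. With BcatGOF enteroids (1) it was 6 without a filter, 0 at a mean of 5 FPKM, 2 without those 2 libraries together, and 1 to 198 as single libraries were left out, with 198 in that same fit of 1 BcatGOF library. Between genotypes (0) it was 4 without a filter. The members' median difference with BcatGOF enteroids was 0.21 to 1.03 as single libraries were left out and 0.21 without the 2 libraries together. Between genotypes it turned from 0.23 to -0.24 without BcatGOF replicate 2. Mpc2 changed sign with wild-type enteroids, between -0.43 and 0.18 as single libraries were left out, and with BcatGOF enteroids, at -0.010 with the replicate block, -0.42 without the 2 libraries together, and -0.42 to 0.74 as single libraries were left out. The cause of these shifts was not tested. In the paired fit with the replicate block as a fixed effect, an unadjusted p under 0.05 was reached by 7 members higher and 2 lower with wild-type enteroids (5.04% and 5.28% of all genes), and 17 higher and 1 lower with BcatGOF enteroids (4.17% and 3.67%). The block changed no call of a member. Of the alternative values of single members, 619 kept their direction and side of the threshold, 6 changed sign and 1 came to pass it. No adjusted p of a member can be read as absence of a difference: the design has 2 or 3 libraries a group, and their depth is unknown.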
